A study of Mus musculus with 9 samples.

Results

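The mitochondrial ribosomal protein genes are the nuclear genes whose symbols begin with Mrpl (large subunit) or Mrps (small subunit). Chromatin accessibility at these genes was read from ATAC-seq, which uses a transposase to tag DNA that nucleosomes leave exposed, as the peaks whose centre lay inside a protein-coding Mrpl or Mrps gene or within 1 kb of one of its ends. This rule used no measured value. It gave 140 of the 75936 peaks of the deposited table, 78 near Mrpl and 63 near Mrps genes, with 1 peak between Mrpl46 and Mrps11 counted in both. Of 78 such genes (49 Mrpl and 29 Mrps), 77 had at least 1 peak and Mrpl43 had none, 43 had a single peak, 23 had 2 and 11 had 3 or more. All 140 peaks passed the filter on low values. They lay on 17 chromosomes.

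Mitoribosomes translate the few messages of mitochondrial DNA, all of which encode subunits of the oxidative phosphorylation complexes. Their RNA is made in the organelle, whereas every one of their proteins is encoded in the nucleus, made in the cytosol and imported, so that the nuclear promoters of the Mrpl and Mrps genes set part of the supply. The symbols follow an older naming in which a few proteins were placed in the wrong particle: the products of Mrps30 and Mrps18a sit in the large subunit, and that of Mrps36 has been assigned to the 2-oxoglutarate dehydrogenase complex. Promoters of such nuclear genes for mitochondria are known for binding NRF1, ETS-family factors such as GABP, YY1 and SP1.

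The libraries came from D2A1-d, which the labels give as murine breast carcinoma cells, untreated by label. They carried a non-targeting control hairpin (NTC, wild type by label, n = 3), the hairpin shMed1 #2 (Med1 knockdown by label, n = 3) or the hairpin shMed1 #4 (Med1 knockdown by label, n = 3). MED1 is a subunit of Mediator, the coactivator complex between transcription factors and RNA polymerase II, and the comparison asks how open chromatin differs when a hairpin against Med1 is present. The labels name biological replicates without saying whether these were separate cultures or whether each hairpin line was a clone or a pool, so p-values measure the spread between these libraries only.

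Reads in peaks ran from 34.8 to 53.7 M per library, and the median peak held 162 to 252 reads. Across peaks, library pairs had r = 0.988 to 0.991 within a group and 0.970 to 0.982 between groups (log2 values). The start-site peak of Med1 itself (chr11:98192989-98193490) stood at 2114 ± 41.3 in NTC, 2023 ± 143 with #2 and 1971 ± 73.1 with #4 (SD, n = 3, normalized counts), with no call against NTC (-0.08 ± 0.04, limma, adjusted p = 0.132). A hairpin acts on the transcript, so this value does not measure depletion. Among lineage markers, Vim, of mesenchymal cells, had start-site peaks of up to 4576 in NTC, while the epithelial keratin gene Krt18 reached 209, Krt8 had no peak and the blood marker Ptprc had none. Cdh2, the other mesenchymal marker, had 7 peaks of up to 340, with 0 at a start site. The epithelial cadherin gene Cdh1 had 9 peaks, of up to 966, with 0 at a start site. Epcam, the other epithelial marker, had 1 peak, of 63.1, with 0 at a start site. Cd68, of macrophages, had 2 peaks, of 1856 at a gene end and 773 at a start site. The summed level of 12 epithelial marker peaks was 2162 to 2361 in NTC, 1991 to 2118 with #2 and 2004 to 2133 with #4. The sum of 14 endothelial marker peaks was 2862 to 3045, 3669 to 3856 and 2905 to 3116 in the same order. The mesenchymal marker peaks summed to 10189 to 10672, 11098 to 11134 and 10218 to 11035, and the blood marker peaks to 2539 to 2796, 2708 to 2868 and 2459 to 2755, with #2 above NTC in the former and overlap in the latter. The part of these differences in the results below was not tested.

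Start sites were taken from the promoter table of RefSeq (GRCm38.p6, the assembly called mm10), which held 69 of the 78 genes. The other 9, Mrpl4, Mrpl13, Mrpl15, Mrpl19, Mrpl38, Mrpl54, Mrps28, Mrps34 and Mrps35, were placed by their gene ends alone. Of the 140 peaks, 71 had their centre within 1 kb of a start of a member gene and covered 68 genes, and 59 of the 71 lay within 250 bases of it. Another 20 peaks lay near a gene end that was not a listed start, and 49 lay in the gene body.

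The promoters printed next belong to the start-site peaks on which the results turn: the 5 start-site peaks among those that fell most, then 2 of the strongest start-site peaks in NTC, both of which rose. Each window runs from 250 bases before the start to 50 after it, along the gene, from RefSeq GRCm38.p6. Capitals mark matches on either strand to any of 5 motifs searched: NRF1 (GCGCNTGCG), the ETS core (CCGGAAG), YY1 (AAGATGGCG), SP1 (GGGCGG) and NFY (CCAAT). The windows are those of Mrpl55 (chr11:59202236-59202535, plus strand), Mrps17 (chr5:129715247-129715546, plus strand), Mrpl20 (chr4:155802628-155802927, plus strand), Mrpl3 (chr9:105053018-105053317, plus strand), Mrpl49 (chr19:6057706-6058005, minus strand), Mrpl18 (chr17:12916042-12916341, minus strand) and Mrpl41 (chr2:24975049-24975348, minus strand).
Mrpl55: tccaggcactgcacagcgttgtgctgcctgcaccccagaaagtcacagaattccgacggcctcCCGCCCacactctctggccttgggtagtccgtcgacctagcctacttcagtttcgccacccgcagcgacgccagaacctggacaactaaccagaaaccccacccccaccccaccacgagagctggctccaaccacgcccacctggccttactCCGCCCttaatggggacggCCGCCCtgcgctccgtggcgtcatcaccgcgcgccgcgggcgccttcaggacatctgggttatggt
Mrps17: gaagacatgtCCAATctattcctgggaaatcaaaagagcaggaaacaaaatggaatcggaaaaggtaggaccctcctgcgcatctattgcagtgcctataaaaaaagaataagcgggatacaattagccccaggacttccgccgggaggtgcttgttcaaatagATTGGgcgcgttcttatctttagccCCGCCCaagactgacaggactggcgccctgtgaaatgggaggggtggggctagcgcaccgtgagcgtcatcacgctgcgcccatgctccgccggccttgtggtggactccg
Mrpl20: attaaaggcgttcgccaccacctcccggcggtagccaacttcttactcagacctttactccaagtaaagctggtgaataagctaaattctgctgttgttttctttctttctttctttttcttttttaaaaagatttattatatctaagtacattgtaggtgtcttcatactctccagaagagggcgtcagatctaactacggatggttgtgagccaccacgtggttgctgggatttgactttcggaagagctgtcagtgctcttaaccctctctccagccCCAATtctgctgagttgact
Mrpl3: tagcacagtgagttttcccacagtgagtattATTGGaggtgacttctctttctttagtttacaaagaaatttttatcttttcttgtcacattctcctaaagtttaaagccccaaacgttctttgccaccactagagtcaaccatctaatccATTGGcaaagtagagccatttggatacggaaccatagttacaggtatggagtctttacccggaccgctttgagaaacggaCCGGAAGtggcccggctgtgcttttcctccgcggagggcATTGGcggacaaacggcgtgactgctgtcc
Mrpl49: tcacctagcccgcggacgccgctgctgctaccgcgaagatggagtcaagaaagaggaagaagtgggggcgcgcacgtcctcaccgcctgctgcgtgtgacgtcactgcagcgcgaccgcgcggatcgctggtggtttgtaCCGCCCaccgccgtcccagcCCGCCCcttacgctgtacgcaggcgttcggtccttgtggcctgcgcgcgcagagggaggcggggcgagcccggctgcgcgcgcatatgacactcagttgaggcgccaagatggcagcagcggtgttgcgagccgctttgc
Mrpl18: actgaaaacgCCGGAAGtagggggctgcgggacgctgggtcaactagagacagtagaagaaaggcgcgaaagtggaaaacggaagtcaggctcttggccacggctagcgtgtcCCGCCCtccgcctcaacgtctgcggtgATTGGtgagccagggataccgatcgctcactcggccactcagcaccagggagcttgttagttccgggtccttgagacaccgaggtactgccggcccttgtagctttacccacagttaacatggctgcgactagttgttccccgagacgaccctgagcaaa
Mrpl41: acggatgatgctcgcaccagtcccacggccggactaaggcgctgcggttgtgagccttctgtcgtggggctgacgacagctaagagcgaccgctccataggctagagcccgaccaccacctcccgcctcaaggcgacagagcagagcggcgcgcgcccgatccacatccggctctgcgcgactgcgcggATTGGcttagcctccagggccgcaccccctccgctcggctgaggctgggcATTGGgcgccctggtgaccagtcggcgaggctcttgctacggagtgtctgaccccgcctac

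In the Mrpl55 window the 3 capital runs are SP1 letters, at -187, -35 and -16 bases from the start, counted to the first base of the run along the gene. Mrps17 held NFY letters at -240 and -86 and SP1 letters at -61, and Mrpl49 held 2 SP1 runs, at -110 and -90. Mrpl3 held the ETS core at -19 with 3 NFY runs, at -219, -99 and 20. Mrpl18 held the ETS core at -240, SP1 letters at -137 and NFY letters at -110, and Mrpl41 held NFY letters alone, at -61 and -11. The Mrpl20 window had a single NFY match, at 30, and the centre of the Mrpl20 peak lay 718 bases beyond that start.

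Taken over all 75 windows of the 69 genes, 24.0% held the NRF1 letters, 34.7% the ETS core, 10.7% the YY1 letters, 52.0% the SP1 letters and 40.0% the NFY letters. The 10829 windows of protein-coding genes with a peak within 1 kb gave 14.6%, 19.1%, 3.24%, 66.6% and 38.4% in the same order, and all 21045 windows gave 8.69%, 11.7%, 1.84%, 46.7% and 38.5%. Member windows thus held the NRF1, ETS and YY1 letters more often, and the SP1 letters less often, than the open windows, as a description with no test. Their median GC content was 58.7%, against 61.7% in the open windows. No window had overlapping ETS and YY1 letters. A match is a string of letters and not a bound site.

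In NTC, start-site peaks of the mitochondrial ribosomal protein genes had a median of 1191 normalized counts (reads divided by the authors' size factor for the library) and ran from 278 to 4667. All 9246 start-site peaks of protein-coding genes had a median of 1352, and those of the 68 start-site peaks of cytosolic ribosomal protein genes a median of 1624. The member peaks at other gene ends had a median of 736, and those in gene bodies a median of 203. The strongest member peaks in NTC were the start-site peaks of Mrpl18, whose product is related to bacterial ribosomal protein L18, at 4667 ± 112, of Mrpl41 at 4358 ± 354 and of Mrps26 at 3969 ± 87.2, with a gene-end peak of Mrps28 at 3998 ± 132 between the latter 2 (SD, n = 3). The first 2 of these did not differ beyond their spread. The weakest were 3 gene-body peaks of Mrps6 and 1 of Mrpl45, at 36.1 to 44.7 on average.

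With a hairpin against Med1, accessibility fell at most start sites of the mitochondrial ribosomal protein genes. In the mean of both hairpins against NTC, 42 of the 71 start-site peaks fell (59.2%), 5 rose and 24 were not called (limma, adjusted p under 0.05 over all 75930 peaks tested). Among all 9244 start-site peaks tested, 35.0% were lower and 14.7% higher, and among all peaks 17.7% were lower and 22.1% higher. The median log2 fold change was -0.20 at the member start sites, -0.07 at all start sites and -0.01 over all peaks. Falls were thus small in size, between -0.11 and -0.58 for those called. By symbol, 28 of 45 Mrpl start-site peaks fell and 3 rose, and 15 of 27 Mrps peaks fell and 2 rose, with Mrps30 and Mrps18a among the 15 and the peak between Mrpl46 and Mrps11 counted in both. In bulk libraries a lower value in every cell and a lower share of cells with the site open cannot be told apart.

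**Figure D1:**
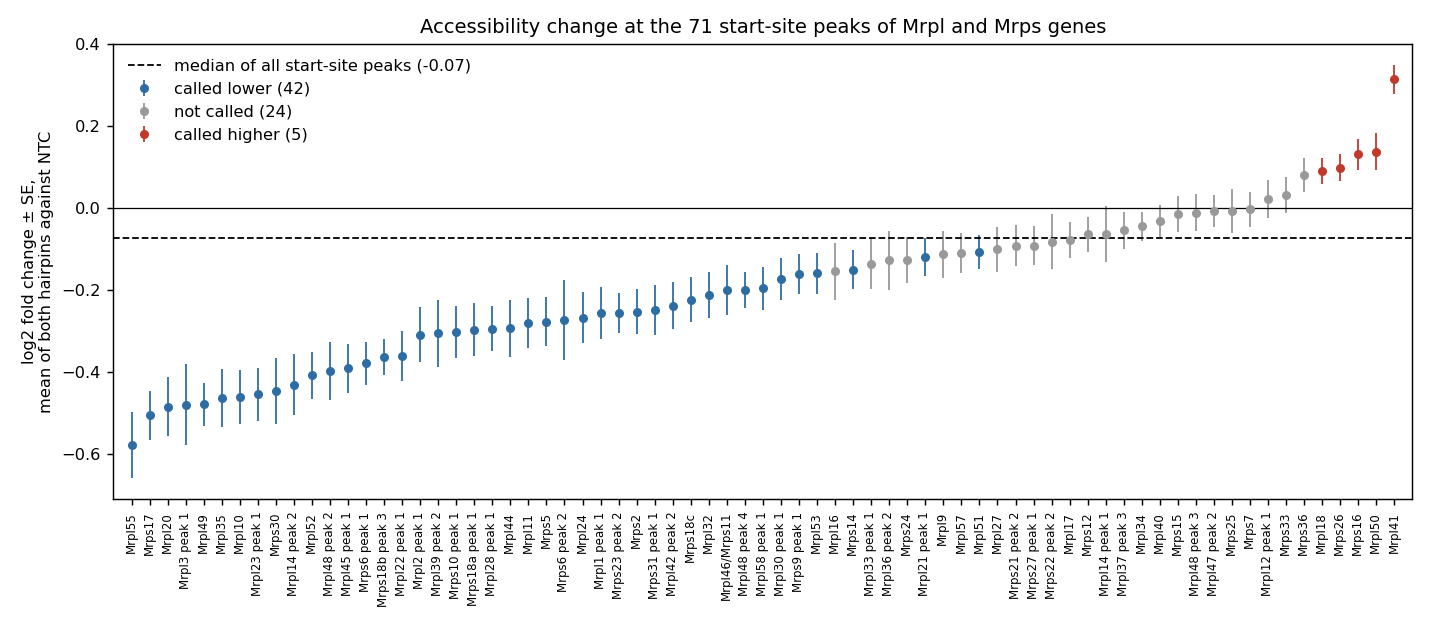
Log2 fold change (limma, ± SE) of each of the 71 start-site peaks of Mrpl and Mrps genes in the mean of both hairpins against NTC, in rank order. Blue peaks were called lower (42), red peaks higher (5) and grey peaks neither way (24). The dashed line is the median of all start-site peaks (-0.07), and Mrpl55 and Mrpl41 stand at the ends.

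The largest fall at a start site was that of Mrpl55, a large-subunit protein with no bacterial counterpart (chr11:59202291-59202792). Its peak stood at 477, 469 and 536 in NTC, 319.8, 296 and 293 with #2 and 353, 405 and 326 with #4. All 6 hairpin libraries lay below all 3 NTC libraries, with the #2 libraries lowest. For both hairpins together, the log2 fold change was -0.58 ± 0.08 (limma, adjusted p = 9.29e-08).

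Mrps17, whose product is the counterpart of bacterial S17 in the small subunit, had its start-site peak at chr5:129715204-129715705. The values were 941, 1041 and 1054 in NTC, 734, 651 and 664 with #2 and 733, 766 and 729 with #4, again without overlap. The change was -0.51 ± 0.06 (limma, adjusted p = 1.83e-09). Mrpl20, counterpart of the bacterial RNA-binding protein L20, went from 701, 754 and 805 in NTC to 619, 523 and 475 with #2 and 536, 502 and 584 with #4 (chr4:155803346-155803847). The groups did not overlap there either, and the change was -0.48 ± 0.07 (limma, adjusted p = 3.56e-07).

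Mrpl3, of the conserved family of bacterial L3, had a weaker start-site peak (chr9:105053068-105053569) at 281, 354 and 358 in NTC, 257, 238 and 186 with #2 and 262, 229 and 253 with #4. NTC replicate 1 was the lowest NTC library and still lay above every hairpin library. The change was -0.48 ± 0.10 (limma, adjusted p = 0.000115). The Mrpl49 peak (chr19:6057582-6058083) is shared with Fau, a gene on the other strand that encodes a cytosolic ribosomal protein fused to a ubiquitin-like domain. It was at 1580.2, 1793 and 1707 in NTC, 1320.5, 1129.8 and 1175 with #2 and 1236, 1172 and 1259 with #4, with no overlap and a change of -0.48 ± 0.05 (limma, adjusted p = 1.86e-10). Which of the 2 genes the signal belongs to cannot be told apart.

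Another 14 start-site peaks had changes of -0.30 or below and were called lower, which with the 5 described gives 19. They included Mrpl35 (-0.46 ± 0.07), Mrpl10 (-0.46 ± 0.07), the counterpart of a bacterial stalk-base protein, Mrpl23 (-0.45 ± 0.06) and Mrps30 (-0.45 ± 0.08), and also Mrpl45 (-0.39 ± 0.06), whose product lies at the exit of the nascent chain tunnel, next to the inner membrane. All but Mrpl45 were picked after their values were seen. Smaller calls, near -0.20 or above, came from Mrpl58, whose product releases stalled chains (-0.20 ± 0.05), from the peak between Mrpl46 and Mrps11 (-0.20 ± 0.06) and from Mrps9 (-0.16 ± 0.05), also picked by their values.

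Only 5 start-site peaks rose, and each is named for that reason, Mrpl50 and Mrps16 after their values were seen. Mrpl41, a large-subunit protein of mitochondria alone, rose most (chr2:24974932-24975433), from 4767, 4161 and 4148 in NTC to 5122, 5366 and 5532 with #2 and 5623, 5518 and 5299 with #4. Every hairpin library lay above every NTC library, although NTC replicate 1 stood apart from the other NTC libraries. The change was 0.31 ± 0.04 (limma, adjusted p = 5.84e-10), and it stayed called and positive in every alternative run. The start of Pnpla7, a lysophospholipase gene on the other strand, lies within 1 kb of the same peak.

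The other rises were much smaller. They were 0.14 ± 0.05 at Mrpl50, 0.13 ± 0.04 at Mrps16, the counterpart of bacterial S16, 0.10 ± 0.03 at Mrps26 and 0.09 ± 0.03 at Mrpl18. At Mrpl18 the values were 4788, 4648 and 4566 in NTC, 4849, 4735 and 4858 with #2 and 5325, 5139 and 4951 with #4, so the #4 libraries lay above NTC while those of #2 overlapped it. None of these 4 calls held with libraries scaled to equal totals. With quantile scaling Mrpl18 (-0.14) and Mrps26 (-0.09) were called lower and Mrps16 was not called (-0.03). Without NTC replicate 2, Mrpl41 was the single start-site peak called higher, so the calls of the other 4 depend on the scaling and on that library.

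**Figure D2:**
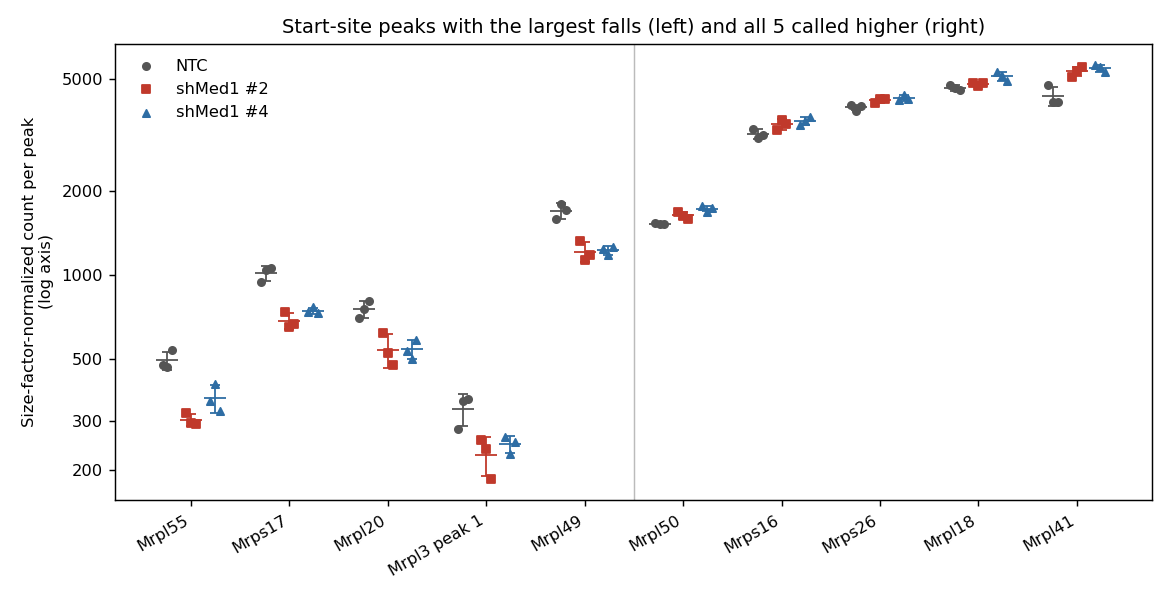
Size-factor-normalized counts per library (log axis) at the start-site peaks with the largest falls and at all 5 start-site peaks called higher, with NTC as grey circles, shMed1 #2 as red squares and shMed1 #4 as blue triangles. Horizontal marks are group means and bars are SDs (n = 3). The 6 hairpin libraries lie below the NTC libraries at the 5 peaks on the left and above them at Mrpl41, Mrpl50 and Mrps26.

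The direction varied with how strong the start-site peak was. The peaks were divided by their mean over all 9 libraries, up to 813 (23 peaks), between (25 peaks) and from 1525 upwards (23 peaks). Of the weakest class 19 fell and 0 rose, of the middle class 18 fell and 0 rose, and of the strongest 5 fell and 5 rose. Median changes were -0.30, -0.21 and -0.01, and all 48 peaks of the first 2 classes had a fitted change below 0. Among all start-site peaks of the weakest and middle levels, 2065 of 2866 and 2043 of 2625 had a change below 0. All start-site peaks at the same levels were called lower at 35.7%, 47.2% and 25.9%, so the excess of falls over other genes lay in the weakest and middle classes, with no test of that difference.

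Across the 71 peaks, level and change had a Spearman correlation of 0.70, against 0.31 across all 9244 start-site peaks. Both are descriptions over peaks that share libraries, and the level includes the values that give the change. The 5 strong peaks that fell included that of Mrps18b (chr17:35916520-35917021), which lies between Mrps18b and Ppp1r10, a regulator of a nuclear phosphatase on the other strand. It went from 3501, 3982 and 3989 in NTC to 3275, 2804 and 2745 with #2 and 3148, 2854 and 3012 with #4, with no overlap and a change of -0.36 ± 0.04 (limma, adjusted p = 3.08e-09).

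**Figure D3:**
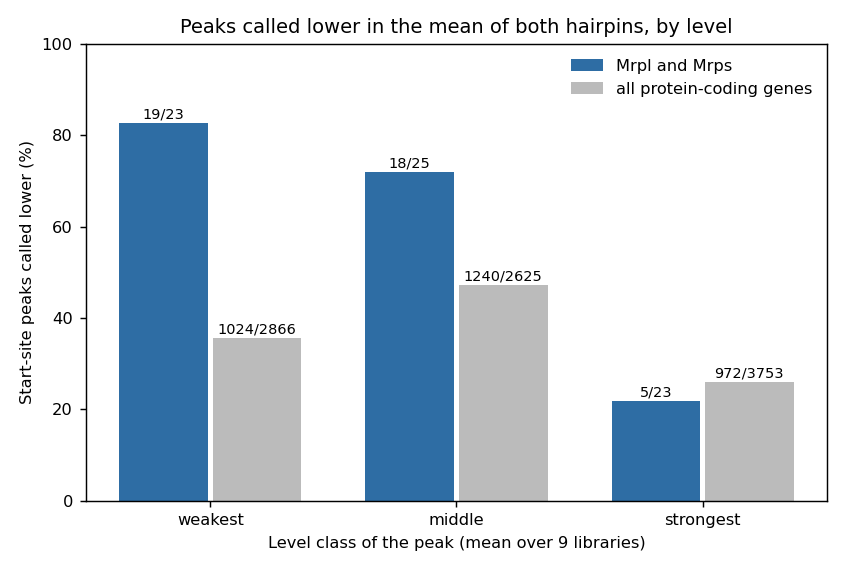
Percentage of start-site peaks called lower in the mean of both hairpins against NTC, by the level of the peak, for Mrpl and Mrps genes (blue) and for all protein-coding genes at the same levels (grey). Numbers above the bars are peaks called lower of peaks tested. In the weakest class 19 of 23 member peaks were called lower, against 35.7% of all start-site peaks.

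Many of these start sites are shared with a gene read in the other direction. Of the 71 start-site peaks, 24 had a divergent start of another protein-coding gene within 1 kb of their centre (33.8%), the Mrpl46 and Mrps11 pair included, against 790 of 9246 start-site peaks (8.54%). Partners included Fau, Tcp1, a cytosolic chaperonin gene paired with Mrpl18, Ndufb5, a subunit of respiratory complex I paired with Mrpl47, Sars2, a mitochondrial seryl-tRNA synthetase paired with Mrps12, and Psma2, a proteasome subunit paired with Mrpl32. Of the 23 peaks with a partner that is no member gene, 11 fell and 3 rose, and of the other 48, 31 fell and 2 rose. That was 47.8% and 13.0% of the 23, and 64.6% and 4.17% of the 48, against 35.0% and 14.7% of all start-site peaks. Calls at the 790 divergent start-site peaks were not counted apart, so no background for shared start sites is given. Median changes were -0.11 for the 23 and -0.25 for the 48. The level of shared and unshared peaks was not matched.

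Summed over the 71 peaks, the start-site signal of these genes took 25.2 to 26.0 per 10000 of all normalized counts in the NTC libraries. It took 21.3 to 22.8 in the #2 libraries and 22.8 to 23.3 in the #4 libraries, and neither hairpin overlapped NTC. All start-site peaks together took 32.7% to 33.5% of the counts in NTC, 29.5% to 30.8% with #2 and 31.4% to 31.8% with #4, so the share of all start sites moved in the same direction. The part of that shift in the falls at member genes was not tested.

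Taken hairpin by hairpin, 46 start-site peaks fell and 2 rose with #2, against 38.6% lower and 11.6% higher among all start sites. With #4, 38 fell and 5 rose, against 23.9% and 15.4%, and the 38 became 20 when the fit had no trend in the variance. By size, the falls with #2 were led by Mrpl55 (-0.70 ± 0.09) and Mrps17 (-0.57 ± 0.07), where #4 gave -0.45 ± 0.09 and -0.44 ± 0.07, while #4 had its largest start-site fall at Mrpl20 (-0.48 ± 0.08, and -0.49 ± 0.08 with #2). Mrpl41 rose by 0.30 ± 0.04 with #2 and 0.33 ± 0.04 with #4. The comparisons share the 3 NTC libraries. All 3 #2 libraries lay below all 3 NTC libraries at 43 peaks (40.9% of all start-site peaks did so) and all 3 #4 libraries at 46 (32.6%), and at 37 of the 71 all 6 hairpin libraries lay below NTC, as they did at 25.3% of all start-site peaks. Over all 140 peaks, 66 fell and 18 rose with #2 (background 19.5% and 23.6% of all peaks), 56 fell and 15 rose with #4 (12.1% and 17.3%), and 65 fell and 17 rose in the mean. The 15 higher with #4 became 9 without NTC replicate 2, and the 56 lower became 33 without NTC replicate 3. Over all peaks, those lower with #4 also went from 9152 to 5500 without NTC replicate 3. With libraries scaled to equal totals the split was 9 higher and 88 lower in the mean and 6 higher and 72 lower with #4. Quantile scaling gave 9 higher and 72 lower with #4. The counts over all 75930 peaks moved as well. In the mean they went from 16796 higher and 13452 lower to 12104 and 21010 with equal totals. With #4 they went from 13150 and 9152 to 9329 and 14938 with equal totals, and to 11436 and 10557 with quantile scaling.

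Set directly against #2, the fitted change with #4 was below 0 at 17 of the 71 start-site peaks and at 2526 of all 9244. Of the 71, 53 had a higher mean with #4, with 5 called higher and 0 lower (limma, adjusted p under 0.05), against 13.1% and 2.33% of all start sites. The 5 were Mrpl55 (0.25 ± 0.09), Mrps14 (0.19 ± 0.05), Mrps22 (0.26 ± 0.08), Mrpl34 (0.14 ± 0.04) and a Mrpl48 peak (0.17 ± 0.05), of which Mrps14 and Mrpl34 were named after their values were seen. At Mrps14, related to bacterial S14, the values were 1587, 1597 and 1705 in NTC, 1414, 1402 and 1312 with #2 and 1564, 1536 and 1605 with #4. The #2 libraries lay below NTC and the #4 libraries overlapped it. The call of Mrpl55 held without #2 replicate 1 or #4 replicate 3 and was lost without any 1 of the other 7 libraries (limma, adjusted p from 0.0550 to 0.305), and that of Mrps22 was lost without #2 replicate 2, #4 replicate 1 or #4 replicate 2 (0.0629 to 0.195). The 5 higher calls became 2 without shMed1 #4 replicate 2, 3 without shMed1 #4 replicate 1 or #2 replicate 3, and 8 without shMed1 #2 replicate 1. The 0 lower calls became 2 without #2 replicate 3, and without a trend in the variance 0 were called either way. Quantile scaling gave 12 higher, while those higher among all start-site peaks went from 1210 to 1698 of 9244. At an unadjusted p under 0.05 in limma, 10 start-site peaks were higher and 1 was lower. The share of all start-site peaks at that threshold was not counted. At the adjusted threshold, 1210 of all 9244 were higher and 215 lower, a lean in the same direction.

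In gene bodies the falls and rises were more even. In the mean of both hairpins, 13 of 49 gene-body peaks fell and 10 rose, where 14.6% of all peaks that were neither at a start nor at a gene end fell and 23.7% rose. Of the 20 peaks at other gene ends 10 fell and 2 rose, where 32.7% of all gene-end peaks, start sites included, fell and 14.4% rose. Some of the 20 belong to the 9 genes with no listed start, such as that of Mrpl19, 15 bases from a gene end. Whether these lie at a start cannot be told here. The 10 gene-body peaks with a mean of at least 500 gave 6 rises and 1 fall, where 59.1% of all peaks of that level away from starts and ends rose and 6.98% fell. The 39 below it gave 4 rises and 12 falls, where 13.6% and 16.7% of all such peaks did so. The 13 falls became 8 without NTC replicate 1. Taken singly, 14 gene-body peaks rose and 13 fell with #2 (26.1% and 16.1% of the peaks away from starts and ends), and 9 rose and 12 fell with #4 (17.9% and 9.87%), with 4 falls without NTC replicate 3. Apart from 5 peaks of Mrps6, which also lie within Slc5a3, a myo-inositol transporter gene, no gene-body peak lay inside another protein-coding gene.

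**Figure D4:**
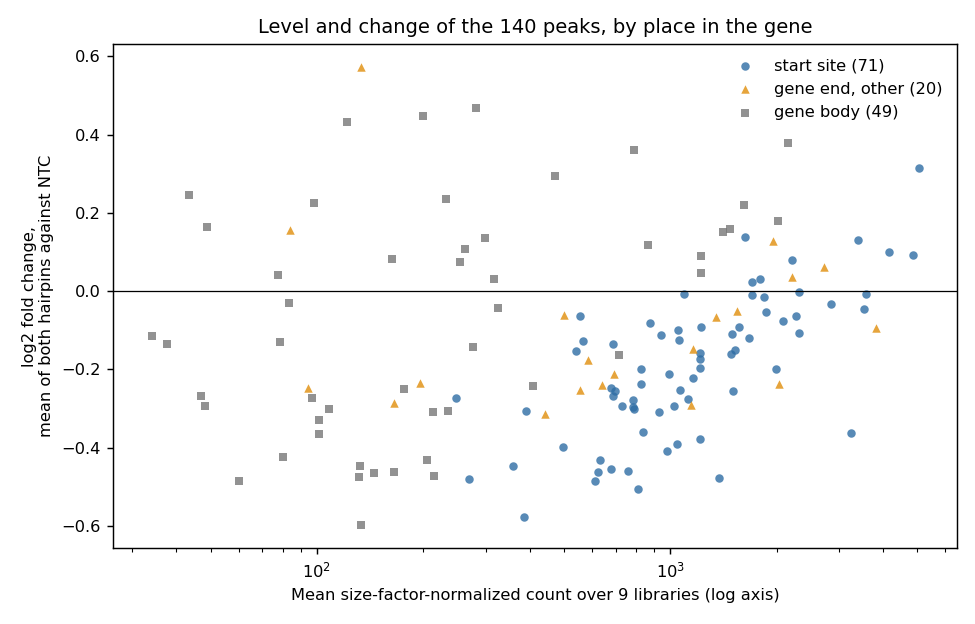
Change on the log2 scale, both hairpins together against NTC, by the mean size-factor-normalized count over 9 libraries (log axis) for the 140 peaks, with start-site peaks as blue circles (71), other gene-end peaks as orange triangles (20) and gene-body peaks as grey squares (49). Start-site peaks lie mostly below 0 at low and middle levels, and gene-body peaks spread to both sides of 0.

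The largest fall of any member peak in the mean of both hairpins was inside Mrpl13, counterpart of bacterial L13 (chr15:55550703-55551204). The values were 176, 189.9 and 150.4 in NTC, 126, 101 and 106 with #2 and 127, 109 and 111 with #4, without overlap, and the change was -0.60 ± 0.13 (limma, adjusted p = 0.000148). A peak inside Mrpl45 changed by -0.47 ± 0.10, from 243, 262 and 284 in NTC to 184, 149 and 201 with #2 and 189, 198 and 218 with #4. In Mrpl23 a gene-body peak was called with #2, at -0.58 ± 0.17, where the values were 116, 123 and 113 in NTC, 90.5, 79.5 and 66.5 with #2 and 87.1, 100.1 and 135 with #4. The Mrpl13 and Mrpl45 peaks thus moved in the same direction as the start-site or gene-end peak of their gene, where the changes were -0.15 at Mrpl13 and -0.39 at Mrpl45.

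Rises inside genes were largest at Mrps27, Mrps6, Mrps9, Mrps28 and Mrpl1, beside a gene-end peak of Mrpl37. The Mrps28 peak (chr3:8866197-8866698) went from 1912, 1761 and 1711 in NTC to 2464, 2461 and 2556 with #2 and 2214, 2157 and 2162 with #4. The 3 groups did not overlap, with #2 highest. The change in the mean was 0.38 ± 0.04 (limma, adjusted p = 3.7e-10).

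The peak inside Mrpl1 (chr5:96221667-96222168) went from 703, 607 and 683 in NTC to 856, 803 and 811 with #2 and 902, 912 and 833 with #4, above NTC in all 6 libraries (0.36 ± 0.06, limma, adjusted p = 3.97e-06). The start-site peak of the same gene fell (-0.26 ± 0.06). The weak peak inside Mrps9 (chr1:42882229-42882730) rose from 107, 94.9 and 93.9 to 128, 144 and 127 with #2 and 123, 146 and 130.2 with #4 (0.43 ± 0.13), again opposite to its start site. With each hairpin alone (0.43 with both) the call was lost with equal totals (limma, adjusted p = 0.0509 with #2 and 0.0565 with #4) and without NTC replicate 2 or NTC replicate 3. The #2 call was also lost without #2 replicate 2, and the #4 call without #4 replicate 2 (limma, adjusted p = 0.0734 and 0.112). The call in the mean was not lost in any alternative.

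Of the 11 genes with at least 3 peaks, 4 had calls in both directions in the mean of both hairpins, Mrpl1, Mrps6, Mrps27 and Mrps28. The same count over all genes with at least 3 peaks was not made. Mrps27, a small-subunit protein of the pentatricopeptide repeat family, had 10 peaks along its 70.8 kb, of which 4 rose and 1 fell in the mean of both hairpins. Its start-site peak was not called (-0.09 ± 0.05), and the largest rise lay 54.8 kb from the end with the lower coordinate (chr13:99399325-99399826). That peak went from 244, 228 and 202 in NTC to 329, 334 and 289.8 with #2 and 301, 299 and 309 with #4, a change of 0.47 ± 0.09 (limma, adjusted p = 3.52e-05). The fall, of -0.46 ± 0.12, lay at 31.0 kb. The other 3 rises were of 0.16 to 0.22, at peaks that averaged 2022, 1474 and 1618 over the 9 libraries. Of all peaks away from starts and ends that averaged at least 500, 59.1% rose. The smaller of these 3 rises, at peaks 2 and 6 counted from the end with the lower coordinate, were not called with libraries scaled to equal totals (limma, adjusted p = 0.0595 and 0.158) or with quantile scaling (0.0752 and 0.072), which left 2 of the 4 rises.

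Mrps6, counterpart of bacterial S6, had 9 peaks over 53.9 kb. Both start-site peaks were called lower (-0.38 and -0.27), and a start of Slc5a3 also lies within 1 kb of both. The weaker peak (-0.27) was not called with #2 (limma, adjusted p = 0.196). Its call in the mean was lost without any 1 NTC library, without #2 replicate 3 (limma, adjusted p from 0.0591 to 0.0722) and without the trend (0.0545). A peak 47.5 kb away rose (chr16:92105625-92106126), from 167, 159 and 148 in NTC to 191, 160.1 and 197 with #2 and 226, 304 and 241 with #4. The #4 libraries lay above all others and the #2 libraries overlapped NTC. The change was 0.69 ± 0.12 with #4 (limma, adjusted p = 2.23e-05) and 0.20 ± 0.12 with #2 (adjusted p = 0.183). The peak next to it was called higher in #4 against #2 as well (0.31 ± 0.11), a call lost without #2 replicate 1 or 3 and without #4 replicate 1 or 3 (limma, adjusted p from 0.0506 to 0.205). A weak peak within Slc5a3 was at 66.3, 71.9 and 80.7 in NTC, 43.9, 54.1 and 83.7 with #2 and 52.2, 56.3 and 32.3 with #4, and fell with #4 (-0.66 ± 0.24), where the #4 libraries lay below NTC. That call was lost without NTC replicate 2, NTC replicate 3 or #4 replicate 3 (limma, adjusted p = 0.0792, 0.131 and 0.217).

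Mrps28, a small-subunit protein related to bacterial S1, had 7 peaks over 122 kb, of which 2 in the middle of the gene rose and 4 toward the end with the higher coordinate fell. Those 4 changed by -0.48, -0.47, -0.45 and -0.09. The first of them was uneven in NTC and #2, at 173, 179 and 127 and 178, 81.8 and 149, against 99.4, 101 and 95.7 with #4. Its call in the mean was lost without NTC replicate 1, NTC replicate 2 or #2 replicate 2 (limma, adjusted p = 0.0668, 0.102 and 0.0608). The call of -0.09 was lost without any 1 of 5 of the 9 libraries (limma, adjusted p from 0.0503 to 0.223). The 2 peaks that rose averaged 2155 and 1408 over the 9 libraries. Of all peaks away from starts and ends that averaged at least 500, 59.1% rose. Of the 2 rises, the smaller (0.15) came from #2 (0.30 ± 0.06) and was not called with #4. It was lost with equal totals, with quantile scaling and without NTC replicate 3 (limma, adjusted p = 0.252, 0.141 and 0.276). Leaving out #4 replicate 1 or the trend in the variance also ended it (limma, adjusted p = 0.0503 and 0.131). In Mrpl37, 1 of 3 peaks rose, in Mrpl14, Mrpl48, Mrpl45, Mrpl13, Mrps10 and Mrps18b 1 or 2 peaks were called, each lower, and Mrpl1 had 1 of each.

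**Figure D5:**
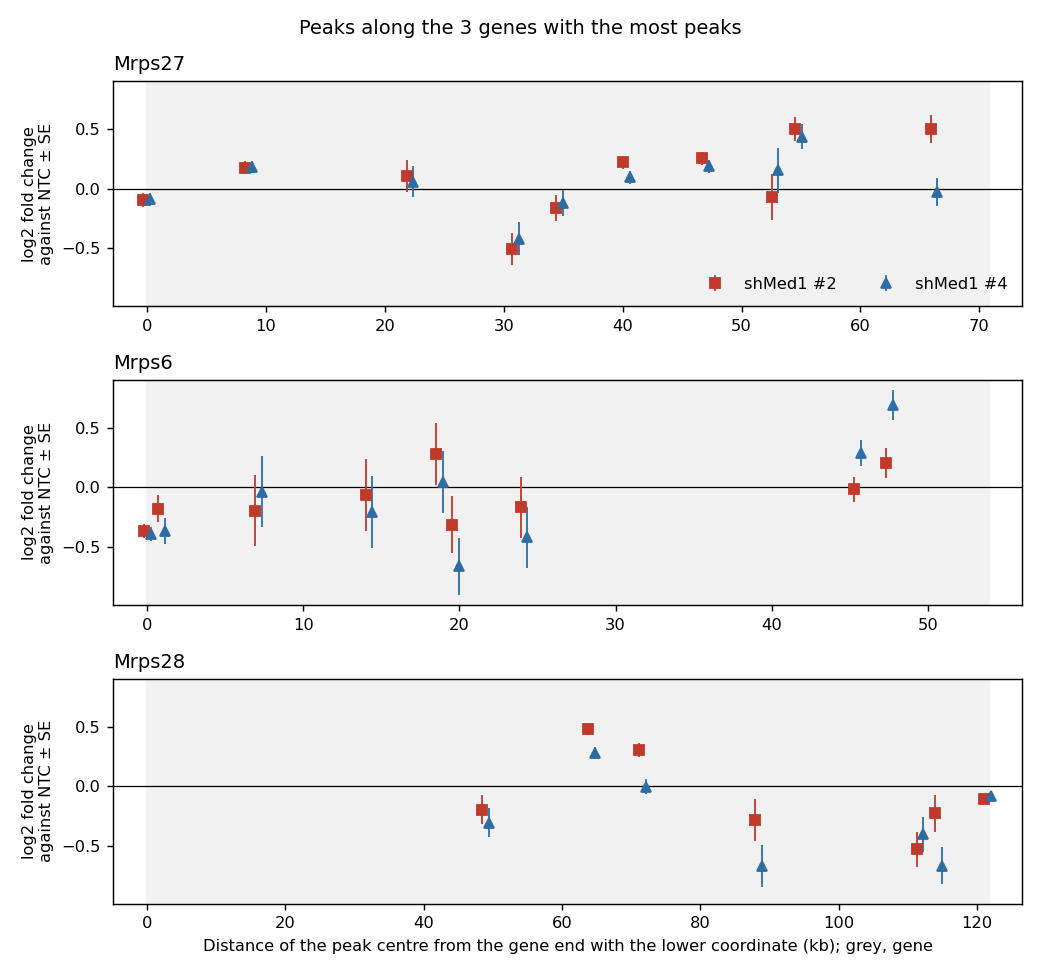
Log2 fold change against NTC (± SE) with shMed1 #2 (red squares) and shMed1 #4 (blue triangles) at each peak of Mrps27 (10 peaks), Mrps6 (9) and Mrps28 (7), by the distance of the peak centre from the gene end with the lower coordinate (kb). Peaks of 1 gene lie on both sides of 0, and the hairpins part most at the last peaks of Mrps27 and Mrps6.

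Some peaks away from start sites differed between the hairpins. In #4 against #2, 3 of 49 gene-body peaks were higher and 10 lower (limma, adjusted p under 0.05), against 7.75% and 15.1% of all peaks outside starts and ends. Over all 140 members 9 were higher and 13 lower, against 8.48% and 13.0% of all peaks, and the 9 became 16 without shMed1 #2 replicate 1. The gene-end peak of Mrpl37 (chr4:107055952-107056453) stood at 90.4, 103 and 101 in NTC, 184, 175 and 194 with #2 and 124, 105 and 120.2 with #4. The #2 libraries lay far above both other groups, and the difference of #4 from #2 was -0.66 ± 0.14 (limma, adjusted p = 0.000426).

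The last peak of Mrps27 (chr13:99410706-99411207) behaved alike, at 228, 199 and 187 in NTC, 302, 260.3 and 307 with #2 and 201, 181 and 219 with #4 (-0.53 ± 0.11 for #4 against #2, limma, adjusted p = 0.000431). A peak inside Mrpl39 (chr16:84720633-84721134) was at 405, 417 and 393 in NTC, 654, 557 and 565 with #2 and 375, 418 and 465 with #4 (-0.50 ± 0.09, limma, adjusted p = 2.06e-05). In both, the #2 libraries lay above NTC and #4 overlapped it, while the start-site peak of Mrpl39, given as its neighbour, fell with #2 (-0.41).

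Both hairpins were called in opposite directions at 2 peaks. Inside Mrpl28 (chr17:26125152-26125653) the values were 321, 264 and 343 in NTC, 407, 351 and 402 with #2 and 234, 273 and 260.4 with #4, with changes of 0.33 ± 0.10 and -0.27 ± 0.10 (limma, adjusted p = 0.0089 and 0.045). Inside Mrps18a (chr17:46115524-46116025) they were 1210.4, 1200.2 and 1148 in NTC, 1055, 1028 and 1057 with #2 and 1476, 1468 and 1363 with #4, with changes of -0.18 ± 0.06 and 0.27 ± 0.06 (limma, adjusted p = 0.0109 and 0.000257). At Mrps18a the 3 groups did not overlap, and at Mrpl28 the #4 libraries overlapped NTC. At Mrpl28 neither call against NTC was stable. The one with #4 was lost with the replicate block, without a trend in the variance (limma, adjusted p = 0.0506 and 0.126), and without NTC replicate 1, NTC replicate 3, #4 replicate 1 or #4 replicate 3 (0.0654 to 0.261). The one with #2 was lost with equal totals, without the trend and without NTC replicate 2 (limma, adjusted p = 0.0502, 0.0511 and 0.131).

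Other parts of the mitochondrial translation system, in lists chosen with earlier results of these data known, gave mixed counts in the mean of both hairpins. Beside these counts, 17.7% of all peaks were lower and 22.1% higher, and 35.0% and 14.7% of all start-site peaks. Of 11 peaks of 5 mitoribosome proteins with other symbols, 6 fell and 0 rose (limma, 3 fell without NTC replicate 3), with a median of -0.25, while 1 peak was higher and 7 were lower at an unadjusted p under 0.05. The share of all peaks at the unadjusted threshold was not counted. The start-site peak of Ptcd3, a small-subunit pentatricopeptide protein, was at 1053 ± 135 in NTC, 774 ± 45.7 with #2 and 783 ± 84.7 with #4 (SD, n = 3), a change of -0.43 ± 0.07 (limma, adjusted p = 7.54e-07). A gene-end peak of Dap3, a GTP-binding small-subunit protein, changed by -0.25 ± 0.04. Of 20 peaks of 15 translation factors 8 fell and 2 rose (40% and 10%, median -0.11). Oxa1l, which inserts nascent chains into the inner membrane, had a start-site change of -0.56 ± 0.07 and Mtrf1l, a release factor, one of -0.36 ± 0.05. Gene-body peaks of Gfm2 and of the elongation factor gene Gfm1 rose by 0.41 ± 0.10 and 0.27 ± 0.07.

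Assembly and rRNA modification factors had 15 peaks lower and 9 higher of 57 (5 higher without NTC replicate 3), and at start sites 12 and 2 of 27. That was 26.3% and 15.8%, against 17.7% and 22.1% of all peaks. At start sites it was 44.4% and 7.41%, against 35.0% and 14.7% of all start-site peaks. The start-site peaks of Ddx28, an RNA helicase, and Slirp, an RNA-binding protein, changed by -0.30 ± 0.05 and -0.34 ± 0.06, and gene-body peaks of the rRNA methyltransferase gene Mrm1 and the pseudouridine synthase gene Trub2 rose by 0.33 ± 0.04 and 0.26 ± 0.06. Mitochondrial aminoacyl-tRNA synthetases had 15 lower and 14 higher of 71 (8 or 9 lower without any 1 of the NTC libraries). Those shares, 21.1% and 19.7%, were near those of all peaks. At start sites 9 were lower and 2 higher of 18 (50% and 11.1%), with Aars2 at -0.52 ± 0.06 and Lars2 at -0.47 ± 0.06. Gene-body peaks of Fars2 and of Gatb, a subunit of the glutaminyl-tRNA amidotransferase, rose by 0.47 ± 0.07 and 0.46 ± 0.05. Genes of mitochondrial DNA transcription and replication had 7 lower and 7 higher of 25, or 28% each way (4 lower without NTC replicate 2 and 3 without NTC replicate 3). Among them, Ssbp1, which binds single-stranded mitochondrial DNA, was at -0.46 ± 0.06 and Polg2, an accessory subunit of the polymerase, at 0.28 ± 0.04. Primpol, a primase, had a start-site change of -0.25 ± 0.04, and Mgme1, an exonuclease, a gene-body change of 0.67 ± 0.10.

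The factors known at such promoters had 11 of 50 peaks lower and 8 higher (3 higher without NTC replicate 2 or NTC replicate 3). That was 22% and 16%, against 17.7% and 22.1% of all peaks. The start-site peaks of Nrf1 (1367 ± 114 in NTC, 1091 ± 55.2 with #2 and 1177 ± 22.8 with #4) and Yy1 (1883 ± 110.3 in NTC, 1456 ± 155 with #2 and 1513 ± 69.9 with #4) fell, with log2 changes of -0.27 ± 0.05 and -0.34 ± 0.05, and that of Sp1 rose (7044 ± 377 in NTC, 8918 ± 435 with #2 and 9494 ± 146 with #4, 0.39 ± 0.03; SD, n = 3). A gene-body peak of Ppargc1b, a coactivator of nuclear respiratory genes, rose by 0.42 ± 0.08. Among member start sites, the median change was -0.17 for the 18 whose window held NRF1 letters and -0.20 for the 53 without. It was -0.11 for the 24 with the ETS core and -0.24 for the 47 without, -0.13 for the 7 with YY1 letters and -0.20 for the 64 without, and -0.15 for the 35 with SP1 letters and -0.25 for the 36 without. For NFY it was -0.16 for the 27 with the letters and -0.20 for the 44 without. In the mean of both hairpins, peaks with the letters had 10 falls and 1 rise for NRF1, 12 and 2 for the ETS core and 3 and 0 for YY1. They had 19 and 3 for SP1 and 15 and 5 for NFY. Peaks without had 32 and 4, 30 and 3, 39 and 5, 23 and 2, and 27 and 0 in the same order. Among all start-site peaks 35.0% fell and 14.7% rose. Of the 5 rises, only that of Mrpl41 stayed called with equal totals. The medians and counts by motif are descriptions with no test. Windows with ETS or SP1 letters also had higher peaks in NTC, at medians of 1447 and 1598 against 1088 and 1042, and peak level was not matched.

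Cytosolic ribosomal protein genes, whose particle translates nuclear messages, moved in the same direction at their start sites: 52 of 68 fell and 2 rose in the mean of both hairpins, with a median of -0.28, against -0.20 at the 71 mitochondrial start sites. One peak, that of Mrpl49 and Fau, belongs to both lists. In the mean that was 76.5% lower and 2.94% higher, against 35.0% and 14.7% of all start sites. With #2 55 fell and 1 rose, where 38.6% and 11.6% of all start sites did so. With #4 44 fell and 2 rose, where 23.9% and 15.4% did so. Their start-site peaks were stronger in NTC (median 1624 against 1191), and the difference between the lists was not tested. Rpl28 and Rpl3 fell, with changes of -0.48 ± 0.05 and -0.49 ± 0.04 at a start-site and a gene-end peak, while Rps29 and Rpl4 had peaks that rose, by 0.18 ± 0.04 at a gene end and 0.16 ± 0.05 at a start site.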

How the data were processed

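ATAC-seq was run on 9 libraries of D2A1-d cells, 3 per group. The deposited table holds, for 75936 peaks of 501 bases, a signal made by the authors: read counts per peak divided by a DESeq2 size factor per library, per the file name and header. Per the submitters' processing notes, Trim Galore, BWA, MACS2 and featureCounts of Subread were used with mm10 (GRCm38). Duplicate removal, the transposase offset and the merging of peaks were not given in the sources used here. Values were whole multiples of a step per library (100% within 0.01 reads), from which depth was read. A count test was not run. Coordinates are printed as deposited, with counting from 0 or 1 not stated.

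The values were tested with limma 3.58.1 (R 4.3.3, with trend) on log2(value + 1), which understates the change of low peaks, leaving out peaks that averaged under 10. All 9 libraries entered 1 fit with 3 group means, the tests were two-sided, and p-values were Benjamini-Hochberg adjusted over 75930 peaks per comparison at 0.05. Errors of fold changes are SEs, and the other errors are SDs. The fit was tested on simulated data. Tables were joined with Python 3.11.15 and pandas 2.3.3. Equal replicate numbers did not mark paired libraries (correlations of deviations from -0.0843 to 0.0335). Alternatives changed the pseudocount, filter, scaling, variance model, block, membership and libraries.

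Members and gene lists were chosen with earlier results of these data known. By rule, the text names the 8 lowest and 6 highest called members in the mean, the 5 each way per hairpin, up to 4 each way between hairpins, the 4 strongest and 4 weakest in NTC, members of genes with 3 or more peaks, and opposite calls. In the other lists it names up to 2 called peaks each way. Further peaks were chosen after their values were seen. Mtrfr and Trmt61b, in the lists of translation and assembly factors, had no match by symbol. Motifs and start sites came from RefSeq promoter windows of 300 bases (GRCm38.p6).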

Additional observations from a re-analysis of the deposited data

Results flagged for a closer look

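The hairpins differed from each other at 3 peaks in a way a reader may want to look at again, each by the limma test of #4 against #2. Mrpl28 peak 2, in the gene body, was higher with #2 and lower with #4 than in NTC, with a log2 difference of -0.60 (adjusted p = 1.67e-05 by limma). Its calls against NTC are less firm, since the one with #4 (-0.27, adjusted p = 0.045 by limma) was lost in 6 of the alternatives and the one with #2 in 3. Mrps18a peak 2, also in the gene body, was lower with #2 and higher with #4, with a difference of 0.45 (adjusted p = 3.73e-08 by limma). Mrpl48 peak 3, at a start site, had all 3 #2 libraries on one side of NTC and all 3 #4 libraries on the other, with a difference of 0.17 (adjusted p = 0.0124 by limma), although neither hairpin was called against NTC there. Its call was lost without #4 replicate 2 and without a trend in the variance (adjusted p = 0.0716 and 0.0866 by limma).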

How the results depend on the processing

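Of 141 calls at the named members over the 4 comparisons, the pseudocount of 8, no filter on low values and a mean of at least 50 changed 0. Equal totals ended 21 calls and left 6 members higher with #4 and 9 in the mean. Quantile scaling ended 11 calls, left 9 higher with #4, 10 in the mean and 17 in #4 against #2, and turned 7, the changes of Mrpl18 (-0.12 with #4 and -0.14 in the mean), Mrps26 (-0.093 and -0.094) and Mrps16 (-0.036 with #2, -0.018 with #4 and -0.027 in the mean). It also turned 3 changes that were not called, Mrpl18 (-0.17) and Mrps26 (-0.095) with #2 and Mrpl34 with #4 (-0.17). Equal totals moved the median change of all peaks from -0.02 to -0.10 with #2 and from -0.01 to -0.08 with #4. Without a trend in the variance 50 calls ended, leaving 7 higher and 25 lower with #4, 10 higher in the mean, and 4 higher and 7 lower in #4 against #2.

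Members within 1 kb of a gene end gave 4 higher with #2, 5 with #4, 6 in the mean, and 5 higher and 3 lower in #4 against #2. Start-site members, a choice made after seeing the data, gave 2 higher with #2, 5 with #4, 5 higher and 42 lower in the mean, and 5 higher and 0 lower in #4 against #2. Both hold fewer peaks by construction. Leaving out each library in turn gave 14 to 19 higher and 52 to 74 lower with #2, 9 to 15 and 33 to 62 with #4, 12 to 18 and 51 to 71 in the mean, and 6 to 16 and 9 to 13 in #4 against #2. Over all peaks, the same fits gave 10273 to 13908 higher and 5500 to 10053 lower with #4. The replicate block, whose numbers do not pair the libraries, gave 18 higher and 66 lower with #2, 14 and 51 with #4, 17 and 64 in the mean, and 8 and 13 in #4 against #2. Fitting only the groups of the contrast gives no value for the mean of both hairpins and ended 2 calls in the others. Apart from the constructions named, the cause of these shifts was not tested. Peaks under about 100 counts had the largest SEs, so small changes there were not detectable at this depth.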
